A study of Mus musculus with 18 samples.

Results

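The genes described here are 28 genes of sterol and fatty acid synthesis, of 35773 genes counted in mouse pluripotent stem cells by RNA-seq. They were listed by name for their place in the 2 pathways, with earlier results of these data known. The rule itself used no measured value, and no p-value over the list is given. The list holds 18 enzymes that lead from acetyl-CoA to cholesterol, 4 genes that regulate the pathway or carry sterols, and 6 genes that make, elongate or desaturate fatty acids. The filter on low counts, a minimum of 10 in 3 or more samples, removed 0 of the 28.

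The study derived pluripotent stem cell lines from mouse blastocysts and compared their transcriptomes. RNA-seq was available for 18 samples, with 3 replicates in each of 6 groups. The labels give the strain 129S2/SvPasCrl and a wild type genotype for all samples, whereas the methods of the study describe blastocysts from 129/sv females mated with reporter males of mixed background. Naive embryonic stem cells (ESCs) were kept in medium with the 2 inhibitors known as 2i and with leukaemia inhibitory factor (LIF), and AFSCs are primed cells kept in the serum-free base medium N2B27 with activin A and bFGF. ASCs were derived from AFSCs in ABCL medium, which is N2B27 with activin A, BMP4, CHIR and LIF, through colonies picked for a GFP reporter. ESC-ASCs are ESCs that were moved from 2i/LIF to ABCL. Of the lines converted in the study, the one that gave the ESC-ASC libraries is not named in the sources used here. Whether the ESC libraries came from that same line, and the AFSC libraries from the parent line of the ASC libraries, is not stated either. Epiblast-like cells (EpiLCs) and epiblast stem cells (EpiSCs) completed the series, and their media are not given in the sources used here. The study calls its replicates biological, but neither the labels nor the methods say whether they were separate lines or cultures, and the p-values measure the spread between these samples.

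Cholesterol is built from acetyl-CoA through mevalonate, the isoprenoid farnesyl diphosphate, the linear hydrocarbon squalene and the first sterol, lanosterol, which is then trimmed in a series of steps in the endoplasmic reticulum. Fatty acids start from the same acetyl-CoA, which is carboxylated to malonyl-CoA and polymerised by fatty acid synthase. Both pathways are known targets of the SREBP transcription factors, which are held in the endoplasmic reticulum by INSIG proteins when sterols are plentiful and are released when sterols are scarce.

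Total counts were 4961934 to 9906473 in 15 samples and 17813619 to 18071600 in the 3 ESC-ASC samples, so depth and any sequencing batch cannot be told apart from the group in ESC-ASCs. Markers of naive pluripotency summed to 2819 to 4878 in ESCs, ASCs and ESC-ASCs and to 9.02 to 121 in the other groups. Markers of the formative and primed states summed to 99.4 to 269.7 in the former and to 1034 to 3164 in the latter. Sums of 9 markers of primitive and visceral endoderm were 10.2 to 22.9 in all groups but EpiSCs, where they were 64.9 to 67.4, and those of 7 trophoblast markers were 134 to 183 in ESCs, ASCs and ESC-ASCs and 19.2 to 34.8 in EpiLCs, AFSCs and EpiSCs. The sums hide members that moved in opposite ways. Of 4 endoderm markers tested, 2 rose and 2 fell in EpiSCs against ESCs. Of 6 trophoblast markers tested, 3 rose and 2 fell in ASCs and 1 rose and 4 fell in EpiSCs, against ESCs. In ESC-ASCs against ASCs, 2 of these 6 rose and 4 fell. Sums of 7 fibroblast markers were 88.9 to 136 in ASCs and 25.6 to 76.3 elsewhere, but of the 5 tested 3 rose and 2 fell in ASCs against ESCs (*Col1a1* 1.34 ± 0.37, *Col1a2* -1.45 ± 0.38, *Col3a1* -4.22 ± 0.54). In the endoderm list *Ttr*, a defining marker, was at 0 in every sample of all groups but ESCs, and *Afp* was at 0 in every ESC and EpiSC sample. What part other cells had in the results was not tested, and in bulk RNA fewer cells of a type cannot be told apart from less RNA per cell. The first replicates of ESCs, EpiLCs and AFSCs deviated from their group means in a like manner across genes (correlations 0.352 to 0.400), and results were therefore also computed without these 3 libraries.

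Values below are levels, meaning counts divided by a size factor for depth and by the exonic length in kb, so that genes can be compared with each other. Differences are log2 fold changes ± standard errors (SE), estimated over all 18 samples together with edgeR's quasi-likelihood method. A gene was called when its p-value, adjusted by Benjamini-Hochberg over all 16901 genes tested in the comparison, was below 0.05. Groups of 3 are said to overlap or not by the levels of their samples. The comparisons of ASCs, EpiLCs, EpiSCs and ESC-ASCs with ESCs all used the same 3 ESC samples.

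All 28 genes differed among the 6 groups, as did 94.4% of all genes tested. Of the 28 genes, 17 had their lowest group mean in ESCs and 0 had their highest there, against 19.3% and 17.5% of all genes tested. ASCs held the highest mean of 12 genes, against 14.4% of all genes tested. The 12 include each of the 6 fatty acid genes, although *Fasn* and *Acly* overlapped with ESCs and were not called against them. In ASCs against AFSCs, *Fasn* (0.11) and *Scd2* (0.27) were not called. The highest group exceeded the lowest by 1.45-fold for *Tm7sf2* up to 6.79-fold for *Ebp*, with a median of 3.59-fold that is close to the 3.68-fold of all genes tested. In mean log2 level, the 18 sterol enzymes stood above ESCs by 1.44 in EpiSCs, 1.32 in AFSCs, 1.24 in EpiLCs, 0.78 in ASCs and 0.66 in ESC-ASCs. The 6 fatty acid genes stood 0.80 above ESCs in ASCs and between -0.24 and 0.11 in the other groups. The 28 genes together took 0.388% ± 0.0506 of all counts in ESCs, 0.408% ± 0.0174 in ESC-ASCs, 0.508% ± 0.0723 in EpiLCs, 0.633% ± 0.143 in AFSCs, 0.643% ± 0.0613 in EpiSCs and 0.701% ± 0.110 in ASCs (SD, n = 3). ASC samples overlapped with those of AFSCs and EpiSCs in this share.

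**Figure D1:**
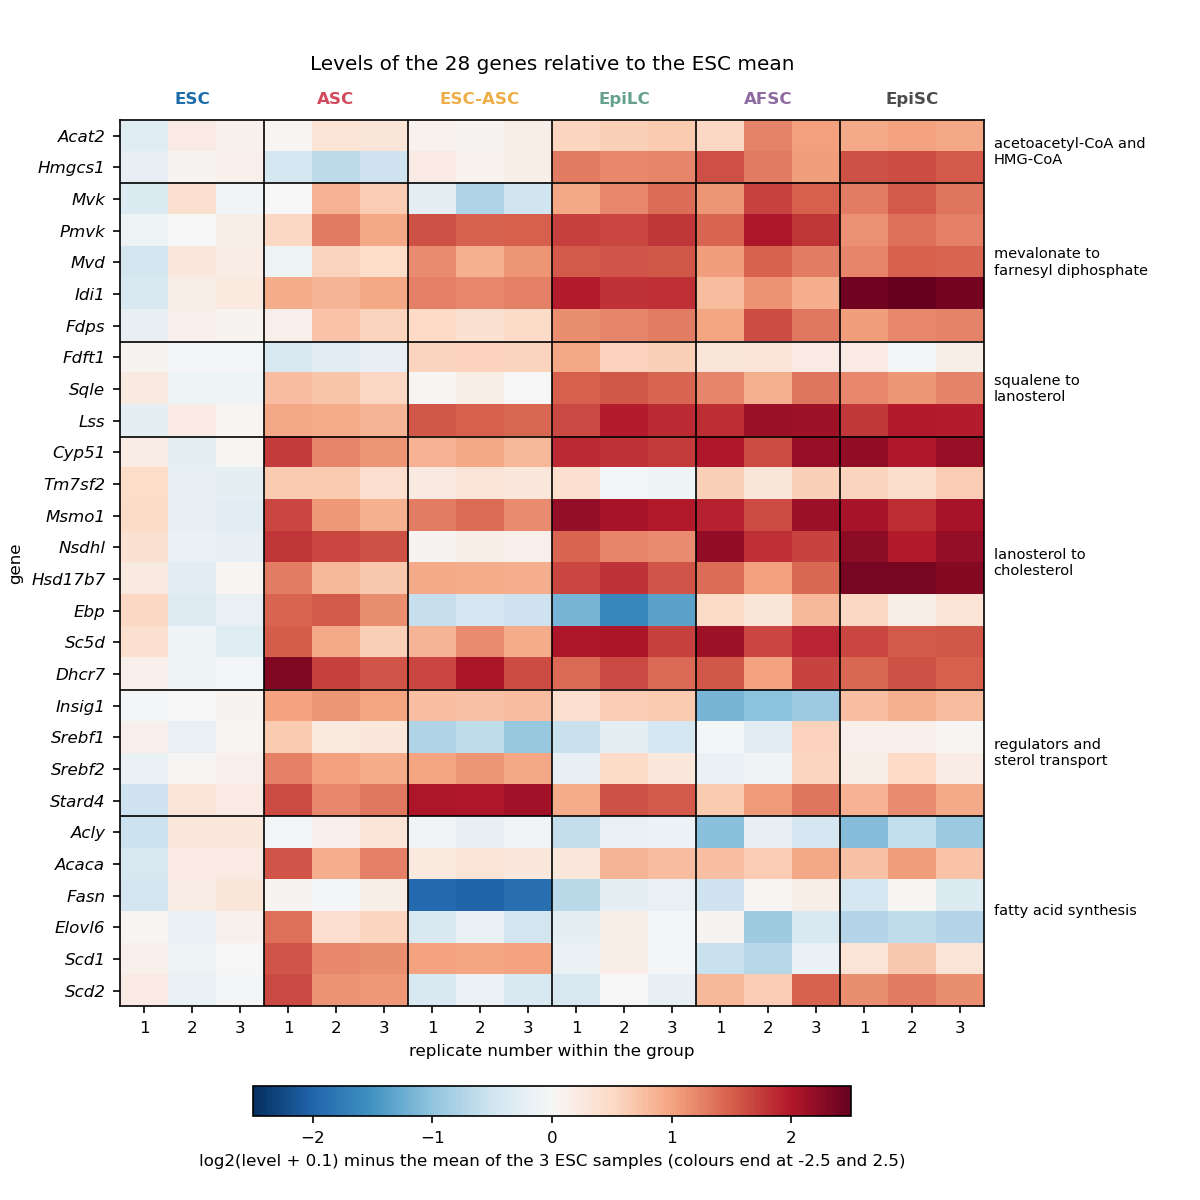
Levels of the 28 genes (rows, grouped by role) in the 18 samples (columns, by group and replicate number), as log2(level + 0.1) minus the mean of the 3 ESC samples. Rows of sterol enzymes are mostly red outside ESCs, *Fasn* is blue in the 3 ESC-ASC samples, and *Insig1* is blue in the 3 AFSC samples.

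**Figure D2:**
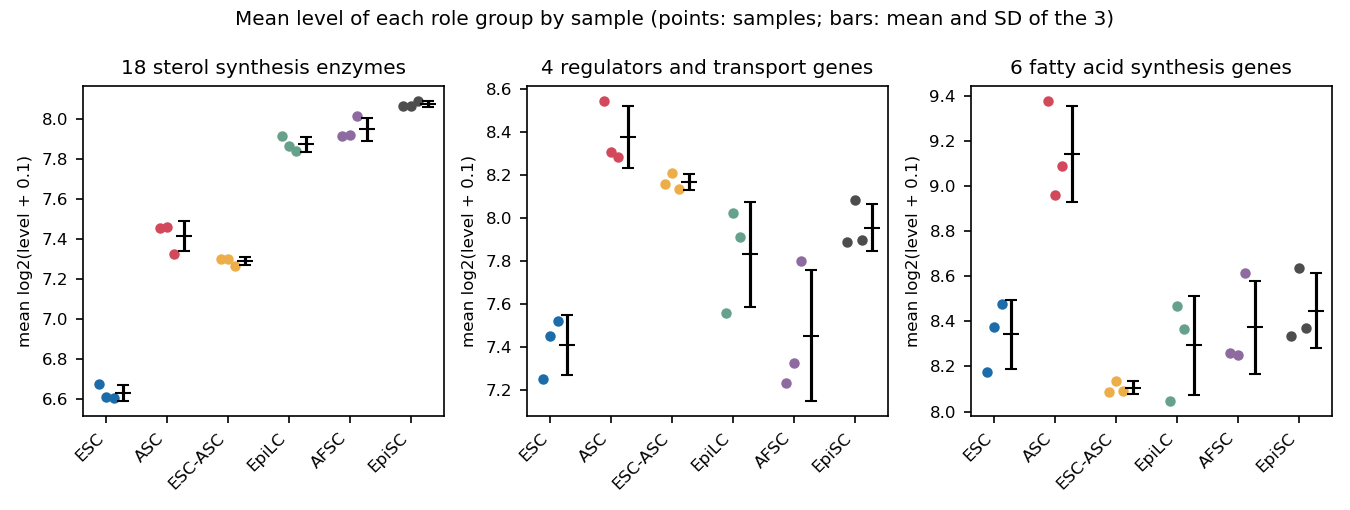
Mean log2(level + 0.1) over the 18 sterol enzymes, the 4 regulators and transport genes and the 6 fatty acid genes in each sample (points), with the mean and SD of the 3 replicates (bars). The vertical axes do not start at 0. Sterol enzymes are lowest in the 3 ESC samples at 6.61 to 6.68, and fatty acid genes are highest in the 3 ASC samples at 8.96 to 9.38.

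In ASCs against ESCs, which addresses how the ABCL lines differ from naive cells, 22 of 28 genes were called, 20 higher and 2 lower in ASCs, where 50.3% of all genes tested were called (26.4% higher and 23.9% lower). Their median log2 fold change was 0.91, against 0.02 for all genes. In EpiLCs against ESCs 20 were called, 19 higher and 1 lower, with 55.3% of all genes called (28.7% higher and 26.6% lower), and the median was 1.18 against 0.06. In EpiSCs against ESCs 23 were called, 21 higher and 2 lower, with 61.2% of all genes called (29.2% higher and 32.0% lower), and the median was 1.16 against -0.04. In ESC-ASCs against ESCs 19 were called, 15 higher and 4 lower, with 60.1% of all genes called (30.6% higher and 29.6% lower), and the median was 0.49 against 0.03. Among the 18 sterol enzymes alone, 13 rose and 2 fell in ASCs, 11 rose and 2 fell in ESC-ASCs, 16 rose and 1 fell in EpiLCs, and 16 rose and 0 fell in EpiSCs.

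In ASCs against AFSCs, their parent cells, 19 of 28 genes were called, 7 higher and 12 lower in ASCs, where 64.0% of all genes were called (32.8% higher and 31.2% lower). All 12 that fell were sterol enzymes, of which *Ebp* was the only one that rose, and 4 of the 6 fatty acid genes rose. In ESC-ASCs against ASCs, both grown in ABCL, 17 were called, 6 higher and 11 lower in ESC-ASCs, with 50.7% of all genes called (23.0% higher and 27.7% lower). Here 4 of the 6 fatty acid genes fell and 0 rose, while 5 sterol enzymes rose and 5 fell. The change from AFSCs to ASCs differed from that from ESCs to ESC-ASCs in 22 of 28 genes, by a test of the difference itself that called 58.5% of all genes. In AFSCs against EpiSCs, both primed, 5 were called, 1 higher and 4 lower in AFSCs, where 39.4% of all genes were called (21.6% higher and 17.8% lower). Without the first replicates of ESCs, EpiLCs and AFSCs the number of the 28 genes called between AFSCs and EpiSCs was 9, the added genes being *Hmgcs1*, *Lss*, *Nsdhl* and *Acly*, with log2 fold changes of -0.38, 0.25, -0.37 and 0.56.

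**Figure D3:**
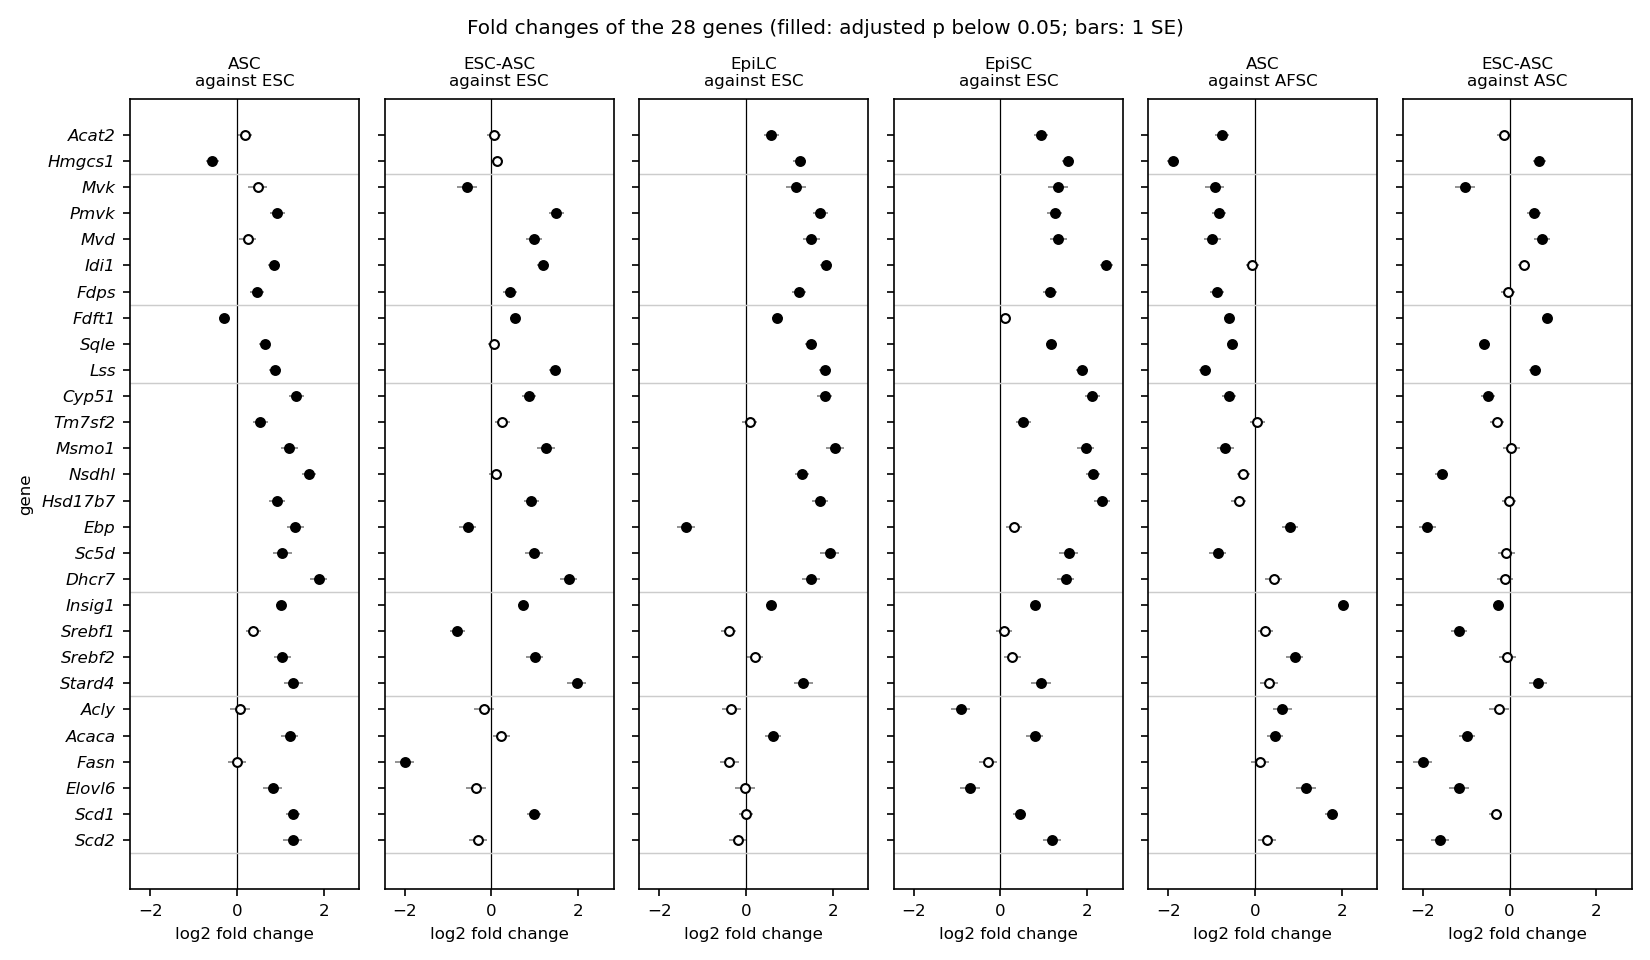
Log2 fold changes of the 28 genes (rows, grouped by role) in 6 comparisons (panels), with bars of 1 standard error. Filled points passed an adjusted p of 0.05 in edgeR's quasi-likelihood test and open points did not. The fatty acid genes at the bottom lie at or above 0 in ASCs against ESCs, and at or below 0 in ESC-ASCs against ASCs.

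The pathway opens with *Acat2*, which condenses acetyl-CoA, and *Hmgcs1*, the HMG-CoA synthase that adds a further acetyl group. *Hmgcs1* stood at 443, 536 and 560.0 in the ESC samples, at 375, 325 and 358 in the ASC samples and at 589, 545 and 564 in the ESC-ASC samples. All ASC samples were below all ESC and ESC-ASC samples. *Hmgcs1* was lower in ASCs than in ESCs (-0.56 ± 0.14, adjusted p = 0.0027) and was 0.69 ± 0.14 higher in ESC-ASCs than in ASCs (adjusted p = 0.00049). In the other groups it was far higher, at 1253, 1169 and 1194 in EpiLCs, at 1554, 1256 and 1056 in AFSCs and at 1533, 1573 and 1469 in EpiSCs. It rose in EpiLCs and EpiSCs against ESCs by 1.24 ± 0.14 and 1.56 ± 0.14, and its log2 fold change of -1.89 ± 0.14 in ASCs against AFSCs (adjusted p = 1.6e-09) was the lowest of the 28 genes in that comparison. *Acat2* ranged from 361 to 565 in ESCs, ASCs and ESC-ASCs, which overlapped, and from 639 to 1065 in the other 3 groups. Of its 50-base stretches, 39.1% occur in other annotated genes, chiefly its neighbours *Acat3* and *Tcp1*, so counts of *Acat2* include fragments that could come from either.

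*Mvk*, *Pmvk* and *Mvd* phosphorylate and decarboxylate mevalonate, *Idi1* isomerises the resulting isoprenoid unit, and *Fdps* joins these units to farnesyl diphosphate. *Idi1* was the most variable of the 5, with 108, 154 and 166 in ESCs, 265, 252 and 274 in ASCs and 334, 322 and 334 in ESC-ASCs. It reached 548, 493 and 499 in EpiLCs and 749, 856 and 738 in EpiSCs, but stood at only 244, 304 and 261 in AFSCs. The EpiSC samples thus lay above all others, and the AFSC samples overlapped those of ASCs. *Idi1* rose by 2.44 ± 0.15 in EpiSCs against ESCs (adjusted p = 4.1e-11) and was lower in AFSCs than in EpiSCs (-1.52 ± 0.14, adjusted p = 9e-08). Of the 50-base stretches of *Idi1*, 25.3% occur in other annotated genes, chiefly *Gm13502* and *Gm48574*, so its counts can include fragments of these.

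*Pmvk* was at 82.8, 89.0 and 99.6 in ESCs, at 129.8, 222 and 177 in ASCs and at 271, 250.4 and 254 in ESC-ASCs, so these 3 groups did not overlap. Its log2 fold change from ESCs was 0.93 ± 0.18 in ASCs and 1.49 ± 0.17 in ESC-ASCs, and that between ESC-ASCs and ASCs was 0.56 ± 0.16 (adjusted p = 0.0085). *Mvk* went against its neighbours in ESC-ASCs, with 49.3, 33.6 and 40.6 there and 45.6, 76.6 and 55.0 in ESCs. These overlapped, and the log2 fold change of -0.55 ± 0.23 (adjusted p = 0.044) lost its call without ESC replicate 2 (-0.31, adjusted p = 0.30), ESC replicate 3 (-0.61, 0.057), ESC-ASC replicate 2 (-0.41, 0.19) or ESC-ASC replicate 3 (-0.54, 0.094). Against ASCs, at 58.1, 105 and 90.2, *Mvk* was lower in ESC-ASCs with no overlap (-1.03 ± 0.22). *Mvd* and *Fdps* rose in EpiLCs (1.51 ± 0.19 and 1.22 ± 0.16), EpiSCs (1.33 ± 0.19 and 1.15 ± 0.16) and ESC-ASCs (0.99 ± 0.19 and 0.43 ± 0.16) against ESCs. In ASCs, *Mvd* was not called (0.25 ± 0.19), and the call of *Fdps* (0.46 ± 0.16, adjusted p = 0.026) was lost without ASC replicate 2 (0.33, 0.13), ASC replicate 3 (0.42, 0.075) or ESC replicate 1 (0.35, 0.11). The call of *Fdps* in ESC-ASCs was lost without ESC replicate 1 (0.33, 0.12) or ESC-ASC replicates 1 (0.42, 0.069) or 3 (0.42, 0.064). Exons of *Fdps* share 26.7% of their length with *Gm43738*, a gene on the same strand, and make up 42.7% of the exons of *Gm43738*. The 2 genes therefore share fragments. The higher values of *Gm43738* in EpiLCs and EpiSCs than in ESCs (1.10 ± 0.16 and 1.07 ± 0.16) are not separate from those of *Fdps*.

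The path from farnesyl diphosphate to lanosterol runs through *Fdft1* (squalene synthase), *Sqle* (squalene epoxidase, a rate-limiting step) and *Lss* (lanosterol synthase). *Lss* was at 31.0, 42.4 and 38.0 in ESCs, at 71.9, 70.6 and 66.5 in ASCs and at 108, 104 and 100.4 in ESC-ASCs. The 3 groups did not overlap, and *Lss* rose in ASCs against ESCs by 0.88 ± 0.14 and in ESC-ASCs by 1.46 ± 0.14, with ESC-ASCs 0.59 ± 0.13 above ASCs (adjusted p = 0.0012). It stood between 116 and 165 in the samples of EpiLCs, AFSCs and EpiSCs, which overlapped with each other, and was lower in ASCs than in AFSCs (-1.16 ± 0.13, adjusted p = 4.6e-07). *Sqle* was at 187, 147 and 148 in ESCs and at 164, 179.9 and 159.8 in ESC-ASCs, which overlapped. It was higher in ASCs, at 275, 257 and 228 (0.64 ± 0.13 against ESCs), and highest in EpiLCs, at 448, 469 and 438 (1.5 ± 0.13).

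*Fdft1* was at 521, 493 and 488 in ESCs, 387, 409 and 436 in ASCs, 739, 745 and 734 in ESC-ASCs and 977, 741 and 756 in EpiLCs. Samples of ASCs were the lowest of the series and did not overlap those of ESCs. The log2 fold change of -0.31 ± 0.12 between them (adjusted p = 0.036) lost its call without any 1 of the 6 samples but ASC replicate 3, with -0.27 to -0.32 and adjusted p-values of 0.062 to 0.085. It was also lost with DESeq2's size factors (-0.29, 0.053), TMM from autosomal genes (-0.28, 0.052), no filter on low counts (-0.27, 0.17), the 2 groups alone (-0.27, 0.16) and genes with 10 counts in every sample (-0.16, 0.25). ESC-ASCs were 0.86 ± 0.12 above ASCs (adjusted p = 8.3e-06). Counting ignored strand, and 26.8% of the exonic length of *Fdft1* lies opposite exons of *Ctsb*, a lysosomal protease, so the 2 genes share fragments. *Ctsb* itself was 0.72 ± 0.17 higher in ESC-ASCs than in ESCs, and -1.87 ± 0.18 in EpiLCs against ESCs, where *Fdft1* rose by 0.73 ± 0.12. The part of *Ctsb* in the counts of *Fdft1* was not tested.

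The last 8 enzymes turn lanosterol into cholesterol, and 8 of 8 rose in ASCs against ESCs, 7 of 8 in EpiSCs, 6 of 8 in EpiLCs and 5 of 8 in ESC-ASCs, where 26.4%, 29.2%, 28.7% and 30.6% of all genes tested were called higher. The count in ASCs and in EpiSCs includes *Tm7sf2*, whose calls were lost without ESC replicate 2 or 3. That in ASCs also includes *Nsdhl* and *Ebp*, which lie on the X chromosome. All X-linked genes tested had a median log2 fold change of 1.03 in ASCs against ESCs. *Dhcr7*, which reduces 7-dehydrocholesterol to cholesterol, showed the greatest change in ASCs among the 28 genes. It stood at 48.7, 41.0 and 43.7 in ESCs, at 221, 145 and 133 in ASCs and at 141, 182 and 137 in ESC-ASCs. ASCs and ESC-ASCs overlapped with each other and lay above ESCs, with log2 fold changes of 1.89 ± 0.20 (adjusted p = 4.3e-07) and 1.78 ± 0.20 (adjusted p = 3.8e-07). *Dhcr7* was between 88.8 and 144 in EpiLCs, AFSCs and EpiSCs.

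*Cyp51*, the lanosterol demethylase, was at 107, 80.4 and 96.8 in ESCs, 172, 183 and 168 in ESC-ASCs, 319, 220.1 and 204 in ASCs, and 438, 378 and 427 in EpiSCs. Each of these groups lay above the one before it without overlap. Its log2 fold change from ESCs was 0.87 ± 0.17 in ESC-ASCs, 1.37 ± 0.17 in ASCs and 2.12 ± 0.17 in EpiSCs. That between ESC-ASCs and ASCs (-0.50 ± 0.16, adjusted p = 0.015) was not called without ASC replicate 1 (-0.27, 0.13) or ESC-ASC replicate 3 (-0.47, 0.054). *Msmo1*, a sterol methyl oxidase, was at 81.1, 51.0 and 48.3 in ESCs and at 267, 244 and 230.4 in EpiLCs, and its 2.06 ± 0.20 (adjusted p = 6.6e-08) was the greatest log2 fold change of the list in EpiLCs. *Sc5d*, a desaturase late in the pathway, was at 53.3, 37.5 and 32.6 in ESCs and at 163, 165 and 131 in EpiLCs (1.93 ± 0.22). In both genes ASC and ESC-ASC samples lay between these, at 108 to 186 for *Msmo1* and at 61.3 to 114 for *Sc5d*.

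*Hsd17b7*, a sterol ketoreductase, was the lowest of the 28 genes in level, with 12, 8.44 and 10.5 in ESCs, 24.7, 18.1 and 16.3 in ASCs and 53.0, 53.0 and 50.5 in EpiSCs. It rose by 2.35 ± 0.18 in EpiSCs against ESCs (adjusted p = 1.2e-09), and AFSCs, at 26.9, 20.9 and 27.6, lay below EpiSCs with no overlap (-1.04 ± 0.16, adjusted p = 4.6e-05). *Tm7sf2*, a sterol reductase, changed least over the groups. Its calls in ASCs (0.54 ± 0.17) and EpiSCs (0.52 ± 0.17) against ESCs were lost without ESC replicate 2 (0.44, adjusted p = 0.074, and 0.43, 0.072) or ESC replicate 3 (0.42, 0.082, and 0.40, 0.083). Exons of *Tm7sf2* share 15.3% of their length with *Vps51* on the same strand.

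*Nsdhl* and *Ebp*, which remove the methyl groups of lanosterol and shift a double bond of the sterol ring, are the only 2 of the 28 genes on the X chromosome. *Nsdhl* was at 99.4, 68.5 and 66.1 in ESCs, at 264, 245 and 230.3 in ASCs and at 80.6, 84.8 and 83.5 in ESC-ASCs. ESC-ASCs thus overlapped with ESCs, while ASCs lay above both. The log2 fold change was 1.66 ± 0.16 in ASCs against ESCs and -1.56 ± 0.15 in ESC-ASCs against ASCs (adjusted p = 1.4e-07). *Ebp* was at 129.6, 72.6 and 79.2 in ESCs, at 249, 263 and 202 in ASCs, at 60.8, 67.5 and 62.9 in ESC-ASCs and at 40.5, 29.1 and 35.7 in EpiLCs. ASCs were highest and EpiLCs lowest, neither overlapping any other group. *Ebp* rose by 1.35 ± 0.19 in ASCs, fell in EpiLCs (-1.39 ± 0.21, adjusted p = 1.2e-05) and was lower in ESC-ASCs (-0.54 ± 0.19, adjusted p = 0.02), each against ESCs. That last call was lost without ESC replicate 1 (-0.28, adjusted p = 0.19), ESC-ASC replicate 1 (-0.51, 0.061) or ESC-ASC replicate 3 (-0.53, 0.053), and without the first replicates of ESCs, EpiLCs and AFSCs (-0.25, 0.19).

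The 641 X-linked genes tested had a median log2 fold change of 1.03 in ASCs against ESCs, 0.85 in ASCs against AFSCs and -0.91 in ESC-ASCs against ASCs, and medians between 0.00 and 0.13 in the other 4 comparisons. The 16212 autosomal genes had medians between -0.04 and 0.06 in all 7. The rise of both genes in ASCs against ESCs and their fall in ESC-ASCs against ASCs went the way of the X-linked medians, while *Nsdhl* was not called in ASCs against AFSCs (-0.27 ± 0.15). The fall of *Ebp* in EpiLCs and the rise of *Nsdhl* in EpiLCs (1.29 ± 0.16) and EpiSCs (2.13 ± 0.16) stood beside X-linked medians of 0.13 and 0.04. The part of the X chromosome in these values was not tested.

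**Figure D4:**
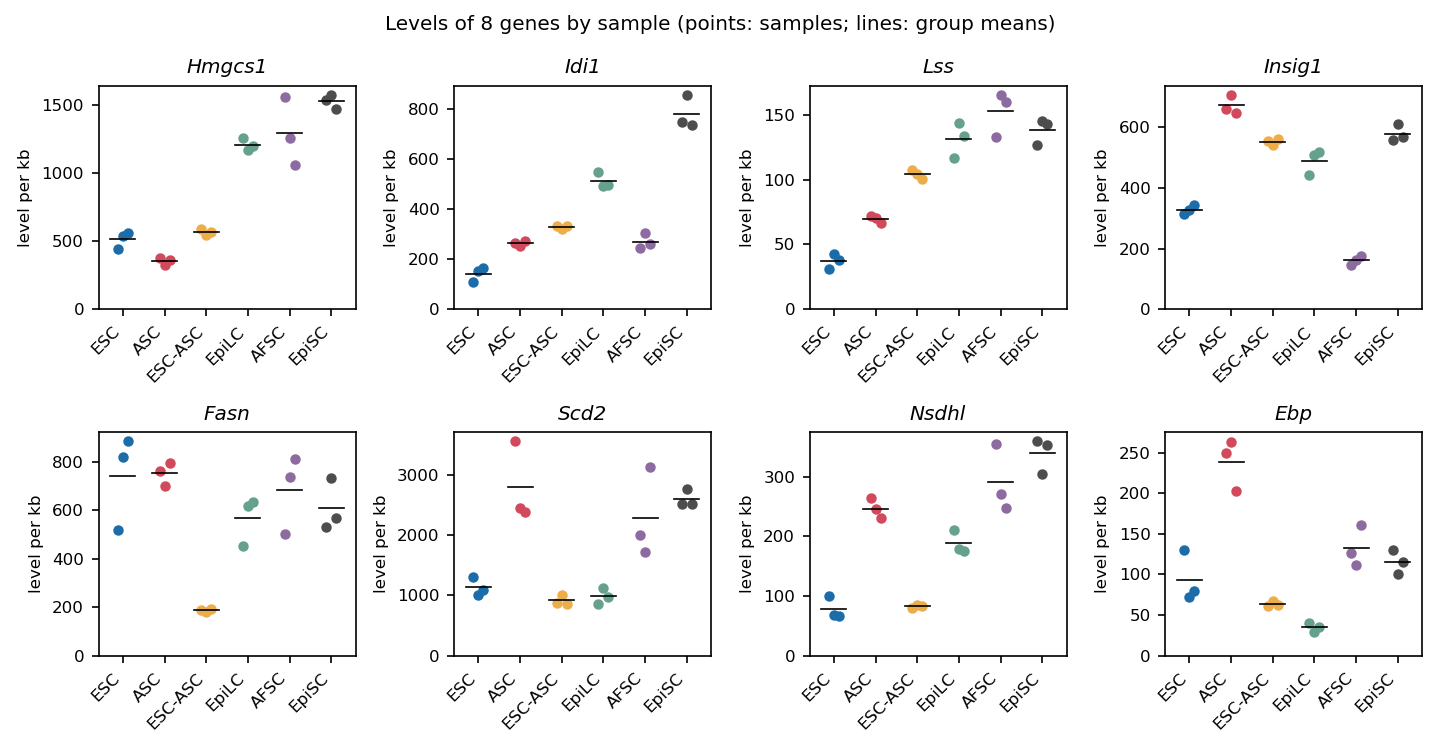
Levels per kb of 8 genes in each sample (points) of the 6 groups, with group means (lines) and axes from 0. *Fasn* is at 180.1 to 195 in ESC-ASCs and at 451 or more elsewhere, and *Insig1* is at 146 to 175 in AFSCs and at 316 or more elsewhere.

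Of the regulators, *Insig1* encodes a protein that holds SREBPs in the endoplasmic reticulum. It was at 316, 328 and 343 in ESCs, 661, 708 and 648 in ASCs, 554, 543 and 560.4 in ESC-ASCs and 146, 162 and 175 in AFSCs. The 3 AFSC samples were the lowest of the series and the 3 ASC samples the highest, and neither overlapped any other group. *Insig1* rose by 2.03 ± 0.11 in ASCs against AFSCs (adjusted p = 2.5e-11) and was lower in AFSCs than in EpiSCs (-1.83 ± 0.11, adjusted p = 3.4e-10). These were the largest changes of the 28 genes in both comparisons. Against ESCs it was higher by 1.01 ± 0.11 in ASCs, 0.73 ± 0.11 in ESC-ASCs, 0.58 ± 0.11 in EpiLCs and 0.80 ± 0.11 in EpiSCs.

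*Srebf2* encodes SREBP2, which acts mainly on sterol genes. It was at 309, 356 and 381 in ESCs, at 826, 711 and 661 in ASCs and at 684, 749 and 679 in ESC-ASCs. Both ABCL groups lay above ESCs and overlapped with each other, with log2 fold changes from ESCs of 1.05 ± 0.19 and 1.0 ± 0.19 (adjusted p = 0.00022 and 0.00021). In EpiLCs, AFSCs and EpiSCs it was at 299 to 506, and it was not called in EpiLCs (0.20 ± 0.19) or EpiSCs (0.27 ± 0.19) against ESCs, although most sterol enzymes rose there. *Srebf1* encodes SREBP1, which acts mainly on fatty acid genes. It was at 229.6, 185 and 218 in ESCs and 332, 250.5 and 252 in ASCs, but at 125, 135 and 109.6 in ESC-ASCs, below all other samples of the series. It fell in ESC-ASCs against ESCs (-0.79 ± 0.18, adjusted p = 0.00091) and against ASCs (-1.17 ± 0.18, adjusted p = 3e-05). *Stard4*, which carries cholesterol between membranes, was at 24, 43.3 and 39.7 in ESCs, 107, 79.4 and 86.6 in ASCs and 141, 139 and 149 in ESC-ASCs. The 3 groups did not overlap, and its log2 fold change of 1.97 ± 0.22 in ESC-ASCs against ESCs (adjusted p = 3.7e-07) was the largest rise of the 28 genes in that comparison.

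Among the fatty acid genes, *Fasn*, the fatty acid synthase itself, separated ESC-ASCs from all other cells. It was at 187, 180.1 and 195 in ESC-ASCs, at 520.2, 817 and 885 in ESCs and at 760.1, 699 and 795 in ASCs. It fell in ESC-ASCs against ESCs (-2.0 ± 0.22, adjusted p = 2.8e-07) and against ASCs (-2.0 ± 0.22, adjusted p = 6.1e-07). ASCs and ESCs overlapped, and *Fasn* was not called between them (adjusted p = 0.99). *Scd2*, a desaturase that makes oleic acid, had the highest group mean per length of the 28 genes in all groups but EpiLCs, where *Hmgcs1* was higher. It stood at 1305, 1007 and 1094 in ESCs, 3566, 2442 and 2388 in ASCs and 869, 1015 and 866 in ESC-ASCs. ASCs lay above both, by 1.28 ± 0.21 over ESCs, with ESC-ASCs at -1.60 ± 0.21 against ASCs (adjusted p = 5.8e-06). High *Scd2* was not particular to ASCs. It was also higher in EpiSCs than in ESCs (1.19) and was not called in ASCs against AFSCs (0.27). *Scd1*, its paralog, was at 260.2, 217 and 235 in ESCs, at 705, 543 and 529.8 in ASCs and at 474, 469 and 477 in ESC-ASCs. Unlike *Scd2*, it was higher in ESC-ASCs than in ESCs (0.98 ± 0.16, adjusted p = 2.6e-05) without overlap, as it was in ASCs (1.30 ± 0.16). *Scd1* was lowest in AFSCs, at 160.1, 144 and 209.7, and rose by 1.76 ± 0.16 in ASCs against AFSCs (adjusted p = 1.9e-08). *Scd1* was also lower in AFSCs than in EpiSCs (-0.90 ± 0.16, adjusted p = 0.00014). The call of *Scd1* in EpiSCs against ESCs (0.44 ± 0.16, adjusted p = 0.021) was lost without EpiSC replicate 2 (0.31, 0.13), ESC replicate 2 (0.39, 0.079) or ESC replicate 3 (0.44, 0.051).

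*Elovl6*, which extends palmitate, was at 218, 187 and 226 in ESCs, 547, 280.0 and 302 in ASCs, 159.9, 185 and 153 in ESC-ASCs and 126, 135 and 126 in EpiSCs. It rose in ASCs against ESCs by 0.82 ± 0.23 (adjusted p = 0.0061), a call that was lost without ASC replicate 1 (0.45, adjusted p = 0.068), the highest sample of the series. It fell in EpiSCs against ESCs (-0.71 ± 0.23, adjusted p = 0.012) and in ESC-ASCs against ASCs (-1.17 ± 0.23, adjusted p = 0.00034). *Acaca*, the acetyl-CoA carboxylase, was at 24.8, 38.2 and 37.8 in ESCs, 98.0, 61.7 and 78.6 in ASCs and 39.2, 41.3 and 39.7 in ESC-ASCs. It rose by 1.21 ± 0.20 in ASCs against ESCs (adjusted p = 5.2e-05). Its smaller log2 fold changes in EpiLCs against ESCs (0.62 ± 0.19) and in ASCs against AFSCs (0.46 ± 0.19) lost their calls without 2 and 4 single samples in turn, at adjusted p-values of up to 0.057 and 0.23. Of the 50-base stretches of *Acaca*, 30.4% occur in other annotated genes. *Acly*, which makes cytosolic acetyl-CoA from citrate, was at 605, 1049 and 1053 in ESCs and 415, 571 and 458 in EpiSCs, where it fell (-0.92 ± 0.23, adjusted p = 0.0017). ESC replicate 1 was also the shallowest library. In ASCs against AFSCs *Acly* was higher by 0.63 ± 0.23 (adjusted p = 0.020), a call lost without AFSC replicate 1 (0.43, 0.10) or ASC replicate 3 (0.53, 0.076).

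Of 17 tested genes for other sterol and isoprenoid enzymes, 6 rose and 3 fell in ASCs, 6 and 3 in EpiLCs, 7 and 1 in EpiSCs and 6 and 5 in ESC-ASCs, each against ESCs. Of all genes tested, 26.4% were called higher and 23.9% lower in ASCs, and 28.7% and 26.6% in EpiLCs. The shares were 29.2% and 32.0% in EpiSCs and 30.6% and 29.6% in ESC-ASCs. The 9 of 17 called in ASCs and in EpiLCs stood beside 50.3% and 55.3% of all genes. *Por*, the reductase that feeds electrons to *Cyp51* and *Sqle*, was 1.05 ± 0.17 higher in ASCs than in ESCs, and *Coq2*, an enzyme of ubiquinone synthesis, was 1.26 ± 0.12 higher in ESC-ASCs. Of 22 genes for SREBP processing, sterol uptake and storage, 10 rose and 4 fell in ASCs, 8 and 7 in EpiLCs, 5 and 8 in EpiSCs and 11 and 6 in ESC-ASCs. *Soat1*, which esterifies cholesterol for storage, was at 8.65, 4.75 and 6.27 in ESCs, 56.9, 33.5 and 32.2 in ASCs and 146, 141 and 139.7 in EpiSCs. It rose by 2.66 ± 0.26 in ASCs and by 4.47 ± 0.27 in EpiSCs against ESCs. The lipoprotein receptor gene *Lrp8* was at 0.749 to 1.27 in ESCs and rose in all 4 comparisons with ESCs, by 3.99 ± 0.24 in ASCs, 3.81 ± 0.24 in ESC-ASCs, 4.56 ± 0.23 in EpiLCs and 6.14 ± 0.23 in EpiSCs.

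Of 9 tested genes for LXR signalling and sterol efflux, which export cholesterol, 4 rose and 1 fell in ASCs, 5 rose and 3 fell in ESC-ASCs, 1 rose and 4 fell in EpiLCs and 3 rose and 6 fell in EpiSCs. For this list and the next, the shares of all genes called higher and lower were 26.4% and 23.9% in ASCs. They were 30.6% and 29.6% in ESC-ASCs, 28.7% and 26.6% in EpiLCs and 29.2% and 32.0% in EpiSCs. *Abca1*, the cholesterol exporter, was at 20.1, 15.2 and 16.1 in ESCs, 68.4, 28.3 and 32.8 in ASCs and 4.20, 3.63 and 2.62 in ESC-ASCs. ESC-ASCs lay below both groups, with log2 fold changes of -2.30 ± 0.33 against ESCs and -3.62 ± 0.33 against ASCs. Of 33 tested genes for other steps of fatty acid synthesis, elongation and desaturation, 19 rose and 6 fell in ASCs, 17 and 5 in ESC-ASCs, 14 and 8 in EpiLCs and 15 and 10 in EpiSCs. *Mid1ip1*, an activator of acetyl-CoA carboxylase, was at 14.8, 22.4 and 18.9 in ESCs and at 112 to 488 in all other groups, and rose by 3.58 ± 0.22 in ASCs and by 4.64 ± 0.23 in EpiLCs. It is X-linked, and the X-linked genes tested had medians of 1.03 in ASCs and 0.13 in EpiLCs against ESCs. *Acacb*, the carboxylase form that acts at mitochondria, was at 43.9, 48.7 and 52.2 in ESCs and 1.5, 3.02 and 2.58 in EpiSCs, where it fell (-4.32 ± 0.23).

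Of 21 tested genes for fatty acid oxidation, 4 rose and 7 fell in ASCs, 10 rose and 5 fell in ESC-ASCs, 5 rose and 9 fell in EpiLCs and 5 rose and 8 fell in EpiSCs. Among all genes, 26.4% were called higher and 23.9% lower in ASCs, and 30.6% and 29.6% in ESC-ASCs. In EpiLCs these shares were 28.7% and 26.6%, and in EpiSCs 29.2% and 32.0%. *Cpt1a*, the gatekeeper of fatty acid entry into mitochondria, was at 149 to 211 in ESCs, 110.5 to 130.0 in ASCs and 189 to 207 in ESC-ASCs, and at 4.07 to 21.2 in the other 3 groups. It fell against ESCs in EpiLCs (-3.32 ± 0.20) and in EpiSCs (-4.86 ± 0.22). *Cpt1b*, the form known from muscle, was at 67.6, 77.9 and 62.3 in ESC-ASCs and at 1.32 to 17 in all other samples, and rose by 5.30 ± 0.24 in ESC-ASCs against ESCs.

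In ASCs against AFSCs, 3 of 17 tested genes for other sterol and isoprenoid enzymes rose and 6 fell. Genes for SREBP processing and uptake gave 7 and 5 of 22, and those for LXR and efflux 6 and 1 of 9. Other fatty acid steps gave 16 and 8 of 33, and oxidation gave 7 and 9 of 21. Of all genes tested, 32.8% were called higher and 31.2% lower. In ESC-ASCs against ASCs the same lists gave 5 and 3, 7 and 6, 2 and 2, 4 and 11, and 8 and 2. The shares of all genes were 23.0% higher and 27.7% lower. In AFSCs against EpiSCs the lists gave 2 and 1, 6 and 2, 3 and 1, 10 and 8, and 7 and 2. There 21.6% of all genes were called higher and 17.8% lower.

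Windows of 300 bases around the RefSeq start of the gene, 250 before and 50 after, were at hand for 22 of the 28 genes and not analysed here for *Fdps*, *Fdft1*, *Sqle*, *Stard4*, *Scd1* and *Scd2*. They were searched on both strands for letters of factors known at sterol genes. A gene counts as holding a motif when any of its windows does, and genes with several starts, such as *Dhcr7* and *Srebf1* with 3 windows each, had more chances to match. CCAAT, the core of the NF-Y box, occurred in 19 of 22 genes (86.4%), against 42.3% of 17491 protein-coding genes. GGGCGG, a core of SP1 sites, occurred in 18 of 22 (81.8%), against 49.2%, and the E-box CACGTG in 4 of 22 (18.2%), against 8.91%. TCACNCCAC, the sterol regulatory element with 1 free base, occurred in the window of *Hmgcs1* alone, 1 of 22 (4.55%), against 1.41%. A stricter 10-base form of it, which overlaps with it, occurred in 0 of 22. No match says only that these letters are not in the window.

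Stretches of 150 bases that end before the more upstream of the RefSeq and Ensembl starts are shown for genes with contrasting patterns, from GRCm38.p6 and written in the direction of the gene, with matches of TCACNCCAC, CCAAT and GGGCGG on either strand in capitals. Those of *Lss* and *Insig1* end 17 and 49 bases before the RefSeq start and the others at it. They are *Hmgcs1* (chr13:119690201-119690350, plus strand), which was lowest in ASCs and holds TCACNCCAC, *Lss* (chr10:76531438-76531587, plus strand) and *Mvd* (chr8:122443423-122443572, minus strand), which were lowest in ESCs, *Insig1* (chr5:28071213-28071362, plus strand), which was lowest in AFSCs, and *Fasn* (chr11:120824548-120824697, minus strand), which was lowest in ESC-ASCs.
Hmgcs1: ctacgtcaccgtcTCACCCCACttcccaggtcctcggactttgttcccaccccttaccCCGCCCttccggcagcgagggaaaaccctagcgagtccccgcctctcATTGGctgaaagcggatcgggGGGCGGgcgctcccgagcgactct
Lss: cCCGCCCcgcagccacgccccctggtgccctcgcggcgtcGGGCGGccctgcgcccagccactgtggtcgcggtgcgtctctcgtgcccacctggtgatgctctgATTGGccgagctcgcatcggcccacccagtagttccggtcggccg
Mvd: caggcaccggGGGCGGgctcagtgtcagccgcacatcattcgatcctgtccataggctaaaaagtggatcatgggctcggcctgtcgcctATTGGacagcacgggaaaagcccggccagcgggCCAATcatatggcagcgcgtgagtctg
Insig1: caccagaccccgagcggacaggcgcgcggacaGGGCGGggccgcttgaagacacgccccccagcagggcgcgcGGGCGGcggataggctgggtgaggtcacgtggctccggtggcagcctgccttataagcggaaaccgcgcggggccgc
Fasn: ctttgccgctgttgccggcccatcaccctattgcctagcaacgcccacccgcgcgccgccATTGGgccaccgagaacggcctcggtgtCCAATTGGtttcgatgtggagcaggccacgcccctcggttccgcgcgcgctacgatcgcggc

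In these stretches *Hmgcs1* held 1 match of TCACNCCAC, 1 of CCAAT and 2 of GGGCGG, *Lss* held 1 of CCAAT and 2 of GGGCGG, *Mvd* held 2 of CCAAT and 1 of GGGCGG, *Insig1* held 2 of GGGCGG, and *Fasn* held 3 of CCAAT, 2 of which overlap on opposite strands. The matches are descriptions of letters and not of bound sites.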

How the data were processed

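Counts were those deposited by the authors, 1 table of fragments per gene for each of 18 paired-end, polyA-selected libraries. Per the labels and methods, reads were aligned to GRCm38 with TopHat2 and counted against Ensembl 86 with featureCounts 1.5.0-p1, with a minimum overlap of 10 bases, fragments of several genes or positions kept, and strand ignored, so overlapping or near-identical genes share counts. Genes with at least 10 counts in 3 or more samples (16901) were fitted with edgeR 4.0.16 (R 4.3.3, TMM scaling, robust quasi-likelihood test, 6 groups without further covariates), with Benjamini-Hochberg adjustment over all of them. Levels used size factors of DESeq2 1.42.0 and exonic lengths, with a pseudocount of 0.1 on the log2 scale. On counts simulated for ASCs against ESCs (16276 genes), the procedure recovered 87% of 2-fold changes, and 4.103% of the calls made were false. The simulation gave all genes a single dispersion. It changed only genes of higher count, 100 of each size, and in ASCs alone. In the data 50.3% of genes were called in this comparison, so these rates need not hold there. Replicates of a group differed by more than sampling noise. Total counts of 4961934 to 18071600 limit the precision of the lowest genes.

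The 28 genes and the wider lists were chosen with earlier results of these data known. Values in every sample were given for called genes of largest log2 fold change in each direction (up to 6 per comparison) and for genes that went against their role group. From each wider list, genes were named among the 3 called genes of largest change per comparison. Certain genes of the wider lists are counted but not reported by name here. Alternatives were DESeq2's size factors or test, TMM from autosomal genes, other filters on low counts, the replicate number as a block, fits of only the groups compared, thinned ESC-ASC counts, and fits without single samples or, chosen after seeing the data, without the first replicates of ESCs, EpiLCs and AFSCs. Promoter windows came from RefSeq (GRCm38.p6).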

Additional observations from a re-analysis of the deposited data

Results flagged for a closer look

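The change from parent cells to ABCL differed between the 2 parents in 22 of 28 genes, as it did in 58.5% of all genes tested. The comparison, ASCs minus AFSCs less ESC-ASCs minus ESCs, was added after seeing the data and was tested as an interaction with edgeR's quasi-likelihood test. The difference was below 0 in 15 of the 22 genes and above 0 in 7. In 9 genes both changes were called and went opposite ways. The shares of all genes tested that fell below 0, rose above 0 or went opposite ways were not computed, so these counts have no background beside them. The 2 parents started at unlike levels, and AFSCs were not tested against ESCs. In mean log2 level the 18 sterol enzymes stood above ESCs by 1.32 in AFSCs, 0.78 in ASCs and 0.66 in ESC-ASCs. The part of this starting difference in the opposite changes was not tested. It is not stated that the sequenced ESCs and AFSCs were the very lines moved to ABCL. Differences between lines therefore cannot be told apart from changes with the medium. *Lss* differed by -2.62 ± 0.19 (log2, SE, adjusted p = 8.1e-10), with -1.16 from AFSCs to ASCs and 1.46 from ESCs to ESC-ASCs. *Pmvk* differed by -2.33 ± 0.24 (-0.83 against 1.49) and *Mvd* by -1.97 ± 0.26 (-0.98 against 0.99). *Msmo1* differed by -1.94 ± 0.28 (-0.68 against 1.25) and *Sc5d* by -1.84 ± 0.29 (-0.86 against 0.98). *Cyp51* differed by -1.46 ± 0.23 (-0.59 against 0.87), *Fdps* by -1.31 ± 0.23 (-0.87 against 0.43) and *Fdft1* by -1.14 ± 0.17 (-0.59 against 0.55). *Ebp* went the other way, at 1.36 ± 0.27 (0.82 against -0.54). Depth cannot be told apart from the ESC-ASC group, and the calls of *Ebp* and *Fdps* in ESC-ASCs against ESCs were each lost without ESC replicate 1 (-0.28 and 0.33) and without ESC-ASC replicate 1 (-0.51 and 0.42) or 3 (-0.53 and 0.42). The call of *Cyp51* in ASCs against AFSCs was lost in a fit of these 2 groups alone (-0.56, adjusted p = 0.062). *Acly*, one of the 22, lost the call of its difference (0.81) without any 1 of 8 samples in turn (0.60 to 0.83, adjusted p up to 0.097).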

How the results depend on the processing

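For called genes, 2157 single-gene values under the alternatives kept their direction and their side of the threshold, 69 lost the call and 0 reversed. Of 1134 values of genes not called, 46 became called, with no change of sign in any of them. Of values with 1 sample left out, 52 lost the call and 962 did not. Under the alternatives run, the number of the 28 genes called stayed within 1.5 times the value reported in each comparison, except in AFSCs against EpiSCs, where it was 9 in place of 5 without the first replicates of ESCs, EpiLCs and AFSCs. With 1 sample left out, that number was 4 to 7. Without the first replicates calls were also gained by *Srebf1* (0.47) in ASCs, *Acly* (-0.44) and *Fasn* (-0.46) in EpiLCs, *Ebp* (0.59) and *Fasn* (-0.49) in EpiSCs, and *Tm7sf2* (0.50), *Nsdhl* (0.30) and *Acly* (-0.38) in ESC-ASCs, each against ESCs. The same held for *Dhcr7* (0.51) in ASCs against AFSCs and for *Idi1* (0.32) and *Tm7sf2* (-0.31) in ESC-ASCs against ASCs. *Pmvk*, the gene higher in AFSCs than in EpiSCs, lost its call without AFSC replicate 2 (0.38, adjusted p = 0.10 by edgeR's quasi-likelihood test) or EpiSC replicate 1 (0.46, 0.072). *Insig1* in ESC-ASCs against ASCs (-0.28) lost its call in 5 of 6 fits without a sample, and *Stard4* without ASC replicate 2 (0.57, 0.057).

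The replicate numbers were not treated as pairs, since correlations of deviations from group means between samples of the same number ranged from -0.167 to 0.400 and were not all above 0.1. The first replicates of ESCs, EpiLCs and AFSCs did deviate together (0.352 to 0.400). With the replicate number as a block (replicate block), 22 genes were called in ASCs against ESCs and 18 in ESC-ASCs against ASCs, and 0 of 147 calls were lost. After thinning ESC-ASC counts to the median depth of the others, 57 single-gene calls that involve ESC-ASCs were kept and 1 was lost. The lost call was *Mvk* in ESC-ASCs against ESCs (-0.51, adjusted p = 0.066 by edgeR's quasi-likelihood test). Thinning evens out depth but not any sequencing batch.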
